A study of Homo sapiens with 12 samples.

Results

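The cystatins described here were the 9 genes CST1, CST2, CST3, CST4, CST5, CST6, CST7, CSTA and CSTB, measured in H1 human embryonic stem cells with and without knockdown of OCT4. Members were taken by gene name, 9 of the 18852 genes that the annotation of the array names: 10 of the 48803 probes of the array are annotated to them, 2 to CST4 and 1 to each of the others. The family was selected on CST1's strong difference between knockdown and control in these same arrays, so CST1's differences between knockdown and control are given as a description, without a test. The other members entered by name.

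Cystatins are protein inhibitors that plug the active site of papain-like cysteine proteases, chiefly the lysosomal cathepsins, and some also block the asparaginyl protease legumain. Most are secreted, whereas CSTA and CSTB, the stefins, stay inside cells. CST1, CST2 and CST4 encode cystatins SN, SA and S, closely related proteins best known from saliva and tears, while CST3 encodes cystatin C, which most cell types make.

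H1 is an established line of pluripotent cells. All 4 groups were H1 cells transfected with Fugene and a short hairpin RNA (shRNA): an shRNA against OCT4, the pluripotency factor encoded by POU5F1, harvested 2 days after transfection, an shRNA against luciferase harvested at 2 days, and the same pair at 3 days. The labels set them against each other as knockdown and negative control, with 3 Illumina bead arrays per group and 12 in all, and this number limits the precision. They name no other OCT4 shRNA, give no selection for transfected cells, and leave unsaid whether replicates are separate cultures. The p-values therefore reflect no more than the spread among these arrays, which may be technical. RNA was taken from bulk cells, in which fewer cells making a transcript and less transcript per cell cannot be told apart.

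POU5F1 itself read 1707, 2113 and 1347 intensity units on the knockdown arrays at day 2 (replicates 1, 2 and 3), against 9312, 7734 and 6599 on the control arrays. Its day 3 readings were 1050, 1566 and 1321 on knockdown arrays, against 8778, 10294 and 9373 on control arrays. The groups did not overlap at either day, as their labels say, and a second POU5F1 probe was detected on no array. A probe counts as detected on an array where the deposited detection p-value is under 0.01, which the dimmest such probe of each array reached at an intensity of 98.9 to 119. Pluripotent markers were present in every group: 9 of the 9 marker genes with a probe were detected on all 12 arrays.

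Of the 10 cystatin probes, 4 met the filter for testing (detected on at least 3 of the 12 arrays): those of CST1, CST3, CST6 and CSTB. The CST5 probe was detected on 2 arrays. The other 5 probes, for CST2, CST4 (both probes), CST7 and CSTA, were detected on none, with intensities of 48.6 to 88.2. All probes of the array that met the filter, 15407 in all, were fitted together with limma on normalised log2 intensities, and adjusted p-values run over all of them.

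CST1, the salivary-type secreted inhibitor cystatin SN, gave a bright signal in knockdown cells and lay at the edge of detection in control cells. Its probe (ILMN_1753449) read 2929, 2346 and 7200 on the knockdown arrays at day 2 (replicates 1, 2 and 3), against 126, 89.9 and 131 on the control arrays. The day 3 readings were 5393, 7073 and 11785 on knockdown arrays, against 85.7, 105 and 176 on control arrays. Every knockdown array lay far above every control array, and the dimmest knockdown array was 17.9 times the brightest control array at day 2 and 30.7 times at day 3. CST1 was detected on 6 of 6 knockdown arrays, but on only 3 of 6 control arrays (day 2 replicates 1 and 3, day 3 replicate 3).

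On the normalised log2 scale, CST1 averaged 11.82 ± 0.86 (SD, n = 3) in knockdown cells and 6.06 ± 0.54 in control cells at day 2, a difference of 5.76 (SE 0.48). At day 3 it averaged 12.88 ± 0.60 in knockdown cells and 6.06 ± 0.88 in control cells, a difference of 6.82 (SE 0.48). The control levels sit at the level of the background, so the size of the fold rests on how background is treated. With background correction the fitted folds were 54.3 and 113. Without it the differences were 5.0 and 6.02, or 32.0-fold and 64.9-fold, and the ratios of the mean deposited intensities were 35.9 and 66.2.

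Replicate 3 had the highest CST1 reading in all 4 groups. Set against the control array of the same number and day, the day 2 knockdown arrays read 23.2, 26.1 and 54.9 times as bright for replicates 1, 2 and 3. Same-numbered arrays of day 2 were not taken as paired, so these ratios match arrays by label only. The day 3 ratios were 63.0, 67.6 and 67.0, closer together than the readings themselves. Knockdown cells at day 3 and at day 2 differed by 1.06 (SE 0.48) on the log2 scale, and their intensities overlapped, since replicate 3 of day 2 was brighter than replicates 1 and 2 of day 3. Without that array (knockdown day 2 replicate 3) the day 2 difference from control was 5.28.

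In control cells CST1 showed no change with time that the test could find. The day 3 minus day 2 difference was 0.0031 on the log2 scale (95% interval -1.03 to 1.04, limma adjusted p = 0.998), a wide interval because both groups lie near background. In that comparison 0.156% of all tested probes were called at an adjusted p under 0.05, and none of the 4 cystatin probes was. Without adjustment, CST6 alone among the 3 kept relatives of CST1 had a p under 0.05. The order of CST1 levels was thus knockdown day 3, knockdown day 2 and then both controls, with the readings overlapping between the knockdown days and between the control days.

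**Figure D1:**
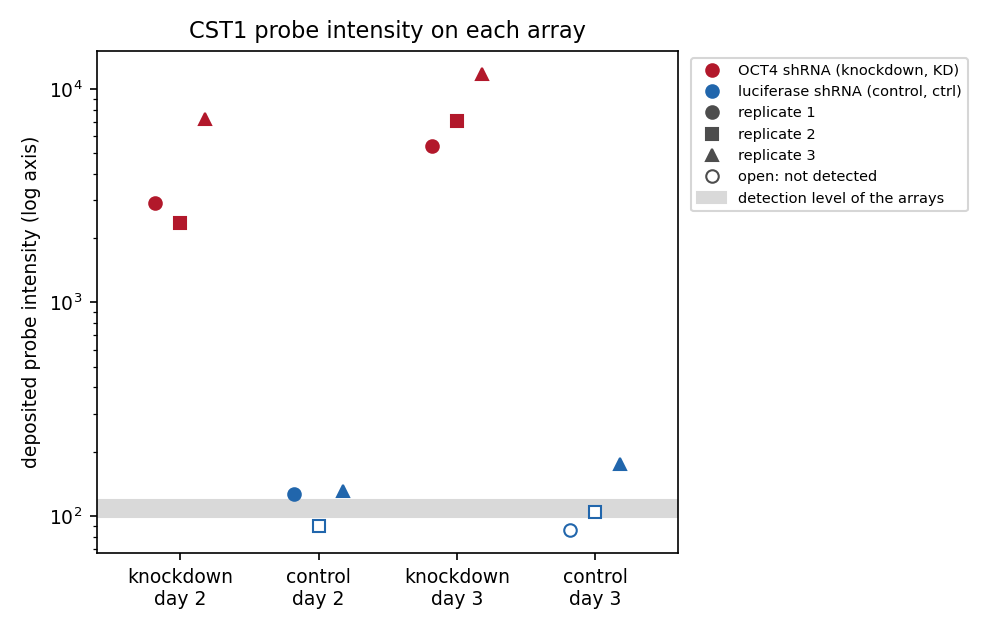
Deposited intensity of the CST1 probe on each of the 12 arrays (log axis), by group, with 1 symbol per replicate, open where the probe was not detected, and the range of the arrays' detection levels in grey. Knockdown arrays lie between 2346 and 11785, and control arrays between 85.7 and 176.

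The nearest paralogs did not follow CST1. The CST2 probe (ILMN_1673843), for cystatin SA, read 69.0, 65.8 and 52.4 on the knockdown arrays at day 3, against 54.4, 53.6 and 61.7 on the control arrays. The first CST4 probe (ILMN_1752452), for cystatin S, read 61.4, 78.7 and 67.7 on knockdown arrays at day 3, against 58.1, 78.9 and 76.1 on control arrays. The second CST4 probe (ILMN_2185911) read 65.6, 54.3 and 56.5 on knockdown arrays, against 58.9, 65.2 and 59.3 on control arrays. For all 3 probes the groups overlapped at both days, and the ratios of knockdown to control mean intensity lay between 0.941 and 1.10.

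Replicate 3 of the day 3 knockdown, the array with the highest CST1 intensity (11785), gave the lowest CST2 reading of its group. On the arrays where CST1 was brightest, the CST2 and CST4 probes thus carried no signal above the arrays' detection level. The reverse question, whether transcripts of CST2 or CST4 contribute to the CST1 probe, was not tested: the probe sequences were not used here.

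CST3, CST4, CST1, CST2 and CST5 follow each other on chromosome 20 in that order, among the protein-coding genes with a probe, in NCBI RefSeq's gene table of the assembly GRCh38.p14. On either side of CST1, CST4 and CST2 were below detection, while CST3 and CST5, one gene further out on each side, read higher in knockdown cells. CST9, testatin, a cystatin relative known from testis that lies beside CST3, was detected on all 12 arrays and changed by -0.065 at day 2 and -0.26 at day 3 (limma adjusted p = 0.876 and 0.206). The other cystatin genes of the row, CSTL1, CST11, CST8 and CST9L, were detected on no array, nor were the larger cystatin-domain proteins KNG1, HRG, AHSG and FETUB, whose genes lie elsewhere. Among 9 flanking genes outside the family, 3 met the filter, NXT1, NAPB and APMAP, and none was called at either day. Of all tested probes, 5.03% were called higher and 2.57% lower at day 2, and 13.2% and 14.4% at day 3. With only 3 genes, the absence of calls says little about the region. Of the 3, APMAP had the largest day 3 difference, 0.37 (SE 0.16, limma adjusted p = 0.106).

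**Figure D2:**
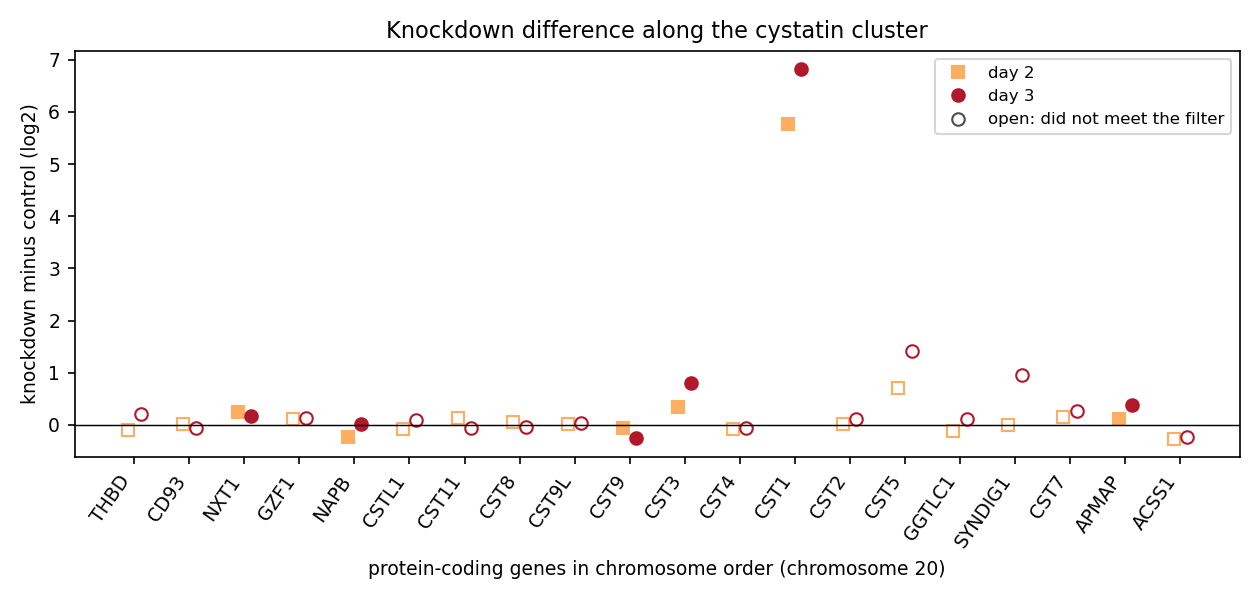
Knockdown minus control difference (log2) at day 2 (squares) and day 3 (circles) for the protein-coding genes around CST1 in chromosome order, with 1 probe per gene and open symbols where the probe did not meet the filter. CST1 stands at 5.76 and 6.82 and CST3 at 0.35 and 0.81. Open symbols, among them CST5 and SYNDIG1, rest on readings at background in 1 or both groups, and their sizes cannot be ranked.

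CST3, cystatin C, the broadly secreted inhibitor of several cathepsins, was present in all groups and somewhat higher after knockdown. Its probe (ILMN_1800354) read 1291, 1246 and 1981 on the knockdown arrays at day 2, against 1125, 903 and 1577 on the control arrays. The day 3 knockdown arrays read 1961, 2125 and 3144, against 1081, 1319 and 1687 on control arrays. The groups overlapped at day 2 and did not at day 3. The day 2 difference of 0.35 on the log2 scale (SE 0.27, limma adjusted p = 0.548) did not pass the test.

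At day 3 CST3 rose by 0.81 (SE 0.27, limma adjusted p = 0.0366), a fold of 1.76. Within replicate numbers the day 3 ratios were 1.81, 1.61 and 1.86, higher in 3 of 3. This call was lost without knockdown day 3 replicate 3 (adjusted p = 0.139), control day 3 replicate 1 (0.141) or control day 3 replicate 2 (0.0938), and with no detection filter (0.106). The call was kept with the replicate number as a block (limma adjusted p = 0.000183). The day 3 effect exceeded that of day 2 by 0.46 (SE 0.38, adjusted p = 0.758). Knockdown cells at day 3 differed from those at day 2 by 0.67 (adjusted p = 0.193, or 0.00355 with the replicate number as a block).

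CST6, cystatin M/E, a secreted inhibitor known from skin that blocks legumain and cathepsins V and L, rose at day 3. Its probe (ILMN_1698666) read 193, 166 and 223 on the knockdown arrays at day 2, against 185, 140 and 180 on the control arrays. At day 3 it read 303, 274 and 306 on knockdown arrays, against 143, 135 and 134 on control arrays. The groups overlapped at day 2, whereas at day 3 every knockdown array read at least 1.92 times every control array. The gene was detected on all 12 arrays, at intensities not far above the detection level.

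The CST6 difference was 0.23 on the log2 scale at day 2 (SE 0.18, limma adjusted p = 0.547). At day 3 it was 1.38 (SE 0.18, adjusted p = 5.99e-05), a fold of 2.60, and it stayed past the threshold in 21 of 21 alternative fits. The effect at day 3 exceeded that at day 2 by 1.15 (SE 0.25, adjusted p = 0.0287). In that comparison 1.57% of all tested probes were called higher. Knockdown cells at day 3 exceeded those at day 2 by 0.72 (adjusted p = 0.029, where 3.51% of all tested probes were called higher), while control cells moved by -0.43 (adjusted p = 0.415).

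In the main fit both of these later CST6 calls depended on single arrays. Leaving out 1 array at a time ended the call on the difference between days in 9 of 12 cases (adjusted p = 0.0514 to 0.0855). The exceptions were knockdown day 2 replicate 3, control day 2 replicate 2 and knockdown day 3 replicate 2. The call within knockdown cells ended in 5 of 12 cases, without knockdown day 2 replicate 1 or replicate 2 or any one of the day 3 knockdown arrays (0.058 to 0.105). With the replicate number as a block both calls were kept, at a limma adjusted p of 0.00279 for the difference and 0.00346 within knockdown cells. The difference includes the day 2 arrays, whose numbers were not taken as pairs.

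CST5, cystatin D, another saliva and tear protein, read low but always higher in knockdown cells. Its probe (ILMN_1688022) read 84.4, 72.9 and 102 on the knockdown arrays at day 2, against 60.0, 58.7 and 65.3 on the control arrays. At day 3 it read 106, 91.7 and 172 on knockdown arrays, against 66.3, 51.9 and 68.4 on control arrays. The groups did not overlap at either day, but only replicates 1 and 3 of the day 3 knockdown gave a detected reading.

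Against the detection level of the control arrays, the CST5 mean in knockdown cells at day 3 was at least 1.1-fold higher. That mean, 6.08 ± 0.74 on the log2 scale (SD, n = 3), includes replicate 2, which was not detected, and the fold lies within its spread. It did not meet the filter and so has no test in the main fit. With no filter, where 8.6% of 48803 probes were called at day 3 and 2.14% at day 2, its fitted differences were 1.41 at day 3 (limma adjusted p = 0.0133) and 0.70 at day 2 (adjusted p = 0.467). Replicate 3 was the brightest of its group for CST5 in all 4 groups, as for CST1, CST3 and CSTB. Whether the CST5 probe picks up CST1 transcripts was not tested.

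Of the stefins and the leukocyte cystatin, only CSTB met the filter for testing, and it was not called. CSTB, cystatin B, the intracellular inhibitor that most cells carry, was bright on every array (ILMN_1761797). It read 4577, 4872 and 5364 on the knockdown arrays at day 3, against 4957, 4802 and 5533 on the control arrays, and the groups overlapped. Its differences were -0.12 at day 2 (95% interval -0.50 to 0.25, limma adjusted p = 0.783) and -0.093 at day 3 (95% interval -0.47 to 0.28, adjusted p = 0.74).

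CSTA, the stefin of skin and leukocytes (ILMN_1669888), was detected on no array and read 48.6 to 64.4 in knockdown cells at day 3, against 59.5 to 60.5 in control cells. CST7, cystatin F of immune cells (ILMN_1679826), was also detected on no array. Its day 3 readings were 82.5, 87.0 and 88.2 on knockdown arrays, against 76.6, 76.3 and 78.5 on control arrays. These do not overlap but all lie below the detection level, so they give no level for CST7.

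Among the 9 cystatin probes other than CST1, whose difference was used to choose the family, 1 at day 2 (CST5) and 4 at day 3 (CST3, CST5, CST6 and CST7) had every knockdown array above every control array. CST7 was detected on none of those arrays. Of all 48803 probes, 7.09% at day 2 and 9.52% at day 3 did so, and the day 2 count, 11.1%, is near that share. Of the 3 tested relatives of CST1, each detected on all 12 arrays, 0 were called higher at day 2 (0 at an unadjusted p under 0.05 as well), where 5.03% of all tested probes were. At day 3, CST3 and CST6 were called higher, where 13.2% of all tested probes were called higher and 14.4% lower. None was called lower. The median difference over all tested probes was -0.041 at day 2 and -0.076 at day 3.

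**Figure D3:**
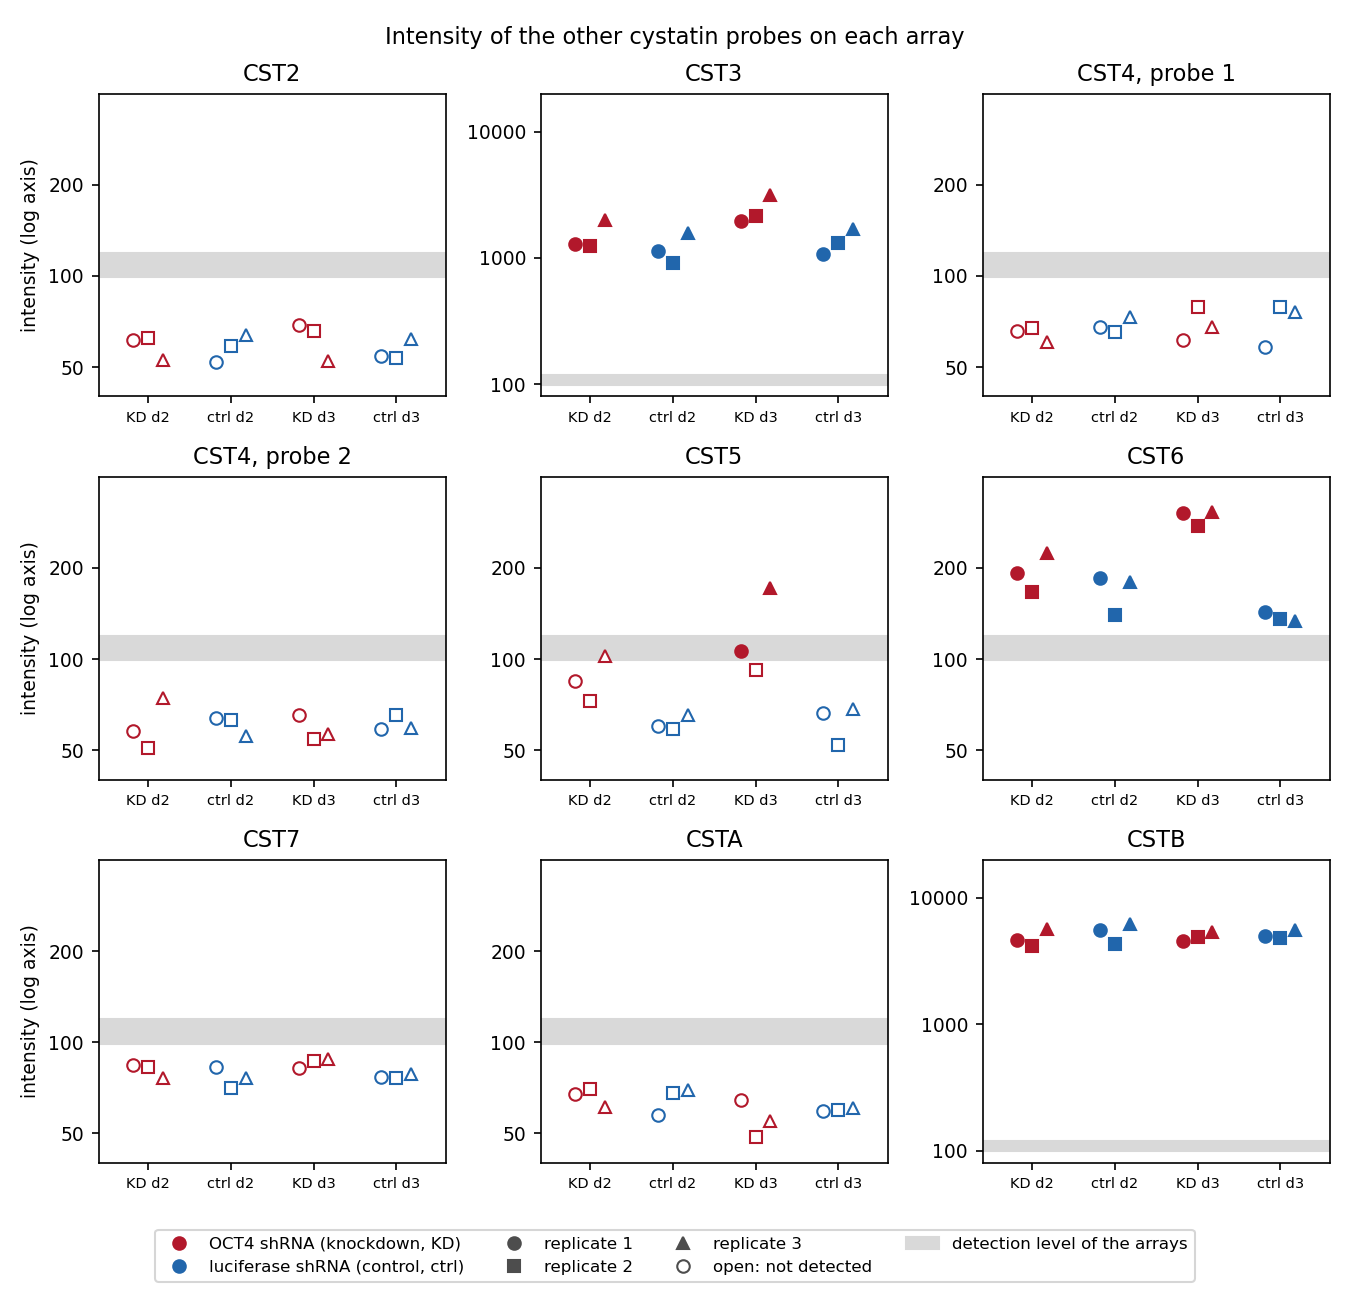
Deposited intensity of the 9 other cystatin probes on each array (log axes, of 2 ranges), symbols as in the CST1 plot. CST3 and CST6 separate at day 3, CST5 separates at both days around the grey detection level, and CST2, both CST4 probes, CST7 and CSTA stay below it throughout.

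Sequence upstream of the genes was at hand in RefSeq's promoter table (GRCh38.p14) for CST3 and CST5 alone among the members. Both are shown because no other member had such a sequence. They lie on either side of CST1, beyond CST4 and CST2, and read higher on every day 3 knockdown array than on every control array of that day. Each stretch runs from 250 bases before to 50 after the annotated start on the minus strand of chromosome 20, for CST3 at chr20:23637906-23638205 and for CST5 at chr20:23879699-23879998. Capitals mark the GC box GGGCGG and the TATA-like run GATAAA, which do not overlap.
CST3: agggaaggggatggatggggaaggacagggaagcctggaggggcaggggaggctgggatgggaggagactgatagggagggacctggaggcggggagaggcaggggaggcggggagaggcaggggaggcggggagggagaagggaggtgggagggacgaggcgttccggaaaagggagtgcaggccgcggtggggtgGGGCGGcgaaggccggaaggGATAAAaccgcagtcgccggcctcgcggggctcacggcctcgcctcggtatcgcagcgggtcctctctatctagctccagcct
CST5: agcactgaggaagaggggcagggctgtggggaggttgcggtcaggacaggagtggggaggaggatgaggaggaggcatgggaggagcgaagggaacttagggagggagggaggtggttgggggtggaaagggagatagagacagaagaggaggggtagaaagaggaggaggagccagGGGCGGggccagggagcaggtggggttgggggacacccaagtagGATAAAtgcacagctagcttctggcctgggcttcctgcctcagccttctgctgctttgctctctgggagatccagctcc

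Both stretches hold 1 copy of each. GGGCGG began at position -53 in CST3 and -73 in CST5, with the start at 0, and GATAAA at -33 and -29. Both strands were searched, and 45.0% of 35116 promoters of the same length hold GGGCGG and 9.2% hold GATAAA, a motif picked after these sequences were read. The purines G and A made up 71.0% of the CST3 stretch and 69.7% of the CST5 stretch, against a mean of 50.4% over all promoters, and 99.7% and 99.6% of promoters had less. The octamer ATGCAAAT known for OCT4, the TCF/LEF motif ATCAAAG and the T-box motif TCACACC were in neither window on either strand, and 1.77%, 2.62% and 3.45% of all promoters hold them.

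Of the proteases that cystatins inhibit, CTSB, CTSV, CTSH and CTSZ were called higher and CTSC lower at day 3, and most probes were not called. Of 12 genes for cysteine cathepsins and legumain, 10 had probes that met the filter, 16 of 21 probes. At day 2, 1 of the 16 was called higher and 0 lower (3 higher and 0 lower at an unadjusted p under 0.05), against 5.03% and 2.57% of all tested probes. At day 3, 5 were called higher, 2 lower and 9 not called, against 13.2% and 14.4%. Both lower probes were of 1 gene, CTSC, and their share of the 16 was near that of all tested probes. The median difference of the 16 was 0.03 at day 2 and 0.09 at day 3.

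CTSB, cathepsin B, an abundant lysosomal protease, was called higher at day 3 on both of its probes. Its brighter probe (ILMN_2359742) read 2957, 4035 and 4081 on the knockdown arrays at day 3 in ascending order, against 952, 1753 and 1761 on the control arrays. The other probe read 773, 780 and 1208 in knockdown cells, against 282, 346 and 478 in control cells. Neither probe's groups overlapped, and the differences were 1.35 (SE 0.23, limma adjusted p = 0.000679) and 1.38 (SE 0.29, adjusted p = 0.00286). At day 2 they were 0.83 (adjusted p = 0.0439) and 0.67 (adjusted p = 0.214). Leaving out 1 array at a time ended the day 2 call in 8 of 12 cases (0.0556 to 0.171): any day 2 array, knockdown day 3 replicate 1 or knockdown day 3 replicate 2.

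CTSV, cathepsin V, a protease of skin and thymus, rose at day 3. It read 2529, 2847 and 3086 on knockdown arrays, against 1286, 1740 and 1789 on control arrays, a difference of 0.83 (SE 0.17, limma adjusted p = 0.00254). CTSH, an aminopeptidase cathepsin, read 625, 688 and 828 in knockdown cells, against 399, 424 and 534 in control cells. Its difference was 0.66 (SE 0.17, adjusted p = 0.0109), and 0.0534 without control day 3 replicate 2. CTSZ, a carboxypeptidase cathepsin, rose by 0.62 (SE 0.20, adjusted p = 0.033), a call that ended in 5 of 12 cases without 1 array (0.0604 to 0.115): each day 3 knockdown array, and replicates 1 and 3 of the day 3 control. CTSV and CTSH also rose within knockdown cells between the days, by 0.76 and 0.79 (adjusted p = 0.0179 and 0.0146). Among knockdown arrays, leaving out day 2 replicate 3, day 3 replicate 1 or day 3 replicate 2 ended this call for CTSV (0.0556 to 0.0841), and leaving out day 2 replicate 1 or day 3 replicate 3 ended it for CTSH (0.0613 to 0.0711).

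CTSC, cathepsin C, the dipeptidyl peptidase that activates granule proteases, fell at day 3. One probe (ILMN_1696347) read 1343, 1471 and 1533 on knockdown arrays, against 1945, 2262 and 2305 on control arrays, a difference of -0.62 (SE 0.13, limma adjusted p = 0.0033). Its 2 other kept probes gave -0.45 (adjusted p = 0.0362) and -0.39 (adjusted p = 0.0907). The call of -0.45 ended without the same arrays as that of CTSZ, 5 of 12 cases (0.0522 to 0.121). CTSF gave -0.45 (adjusted p = 0.12), and 0.0205 with the replicate number as a block.

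CTSL, cathepsin L, and LGMN, legumain, were bright and not called, with day 3 differences of 0.12 and 0.064 for their brightest probes. CTSK and CTSO were not called either, and CTSS and CTSW, proteases of immune cells, did not meet the filter. Cathepsins of other protease classes, which cystatins of this family do not target, had 3 tested probes (CTSA, CTSD and CTSE) and 0 calls at either day, with CTSA at -0.43 at day 3 (limma adjusted p = 0.107, and 0.0138 with the replicate number as a block).

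**Figure D4:**
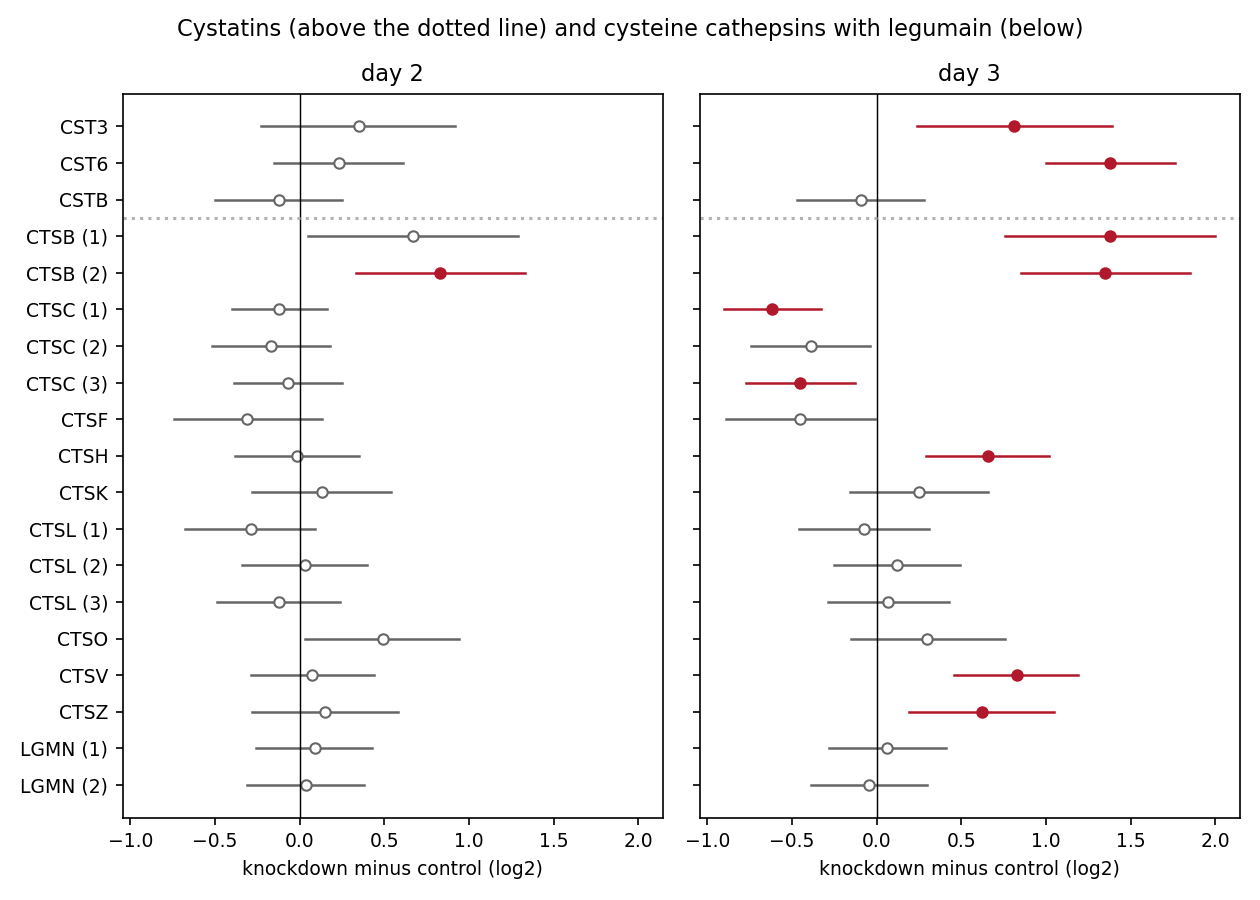
Knockdown minus control difference (log2) with its 95% interval at day 2 and day 3 for the tested cystatin probes other than CST1 and for the cysteine cathepsin and legumain probes, filled and red where the limma adjusted p was under 0.05. CST3, CST6, CTSB, CTSH, CTSV and CTSZ lie right of 0 and CTSC left of it at day 3, and only 1 CTSB probe is filled at day 2.

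The pattern of CST1 over the 12 arrays was set against that of 10505 other genes with a tested probe, by Pearson correlation of the normalised log2 values, as a measure of likeness. A gene with several tested probes was ranked by the probe with the highest r, which favours such genes. All genes share the same arrays and the same split into knockdown and control, and CST1 was chosen for how it differs across that split. The 6 most alike were BGN (r = 0.989), RAI1 (0.987), DKK1 (0.987), BMF (0.985), F3 (0.984) and ENC1 (0.984). BGN, a matrix proteoglycan, averaged 12.95 ± 0.30 in knockdown cells and 8.91 ± 0.23 in control cells at day 3. DKK1, a secreted WNT antagonist, averaged 9.98 ± 0.46 in knockdown cells, against 4.96 ± 0.04 in control cells, where it was detected on no array, as was RAI1. F3, tissue factor, averaged 9.61 ± 0.18 in knockdown cells and 6.72 ± 0.10 in control cells. BMF is an apoptosis activator and ENC1 a cytoskeletal protein.

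The relatives of CST1 lay lower in the same list: CST6 ranked 748th with r = 0.828, CST3 1226th with 0.739 and CSTB 5508th with -0.14. Of the proteases, CTSB came closest, at rank 423 with r = 0.893 for its dimmer probe.

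**Figure D5:**
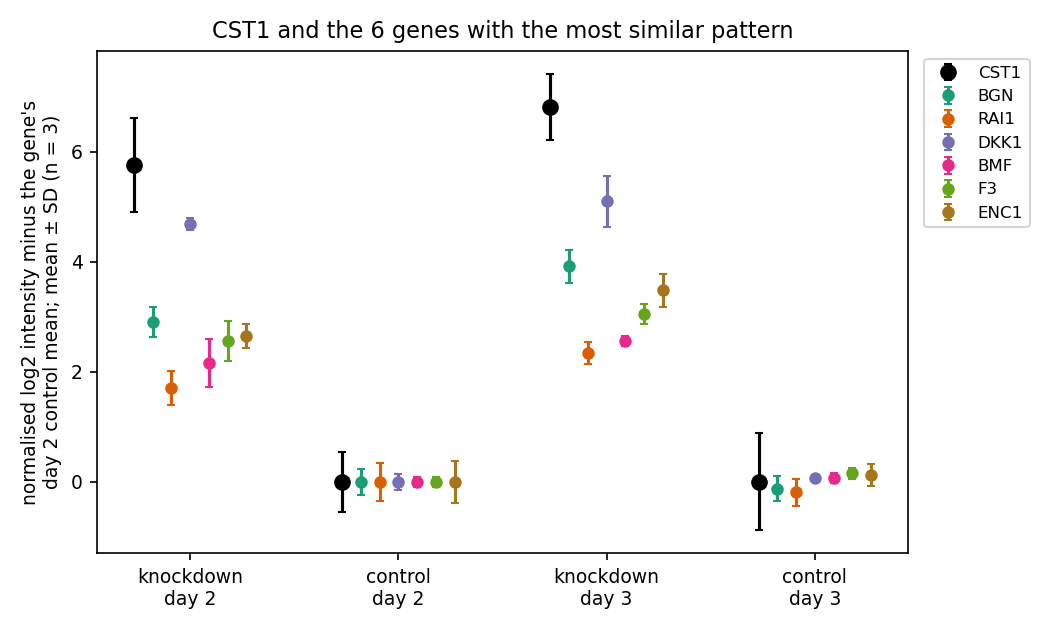
Normalised log2 intensity of CST1 and the 6 genes most like it in the 4 groups, as the group mean minus the same gene's day 2 control mean, with SD bars over 3 arrays. All 7 genes lie higher in knockdown than in control cells at both days, as the choice by likeness to CST1 sets. CST1 in control cells lies at background and DKK1 and RAI1 were detected on no control array, so the sizes cannot be ranked.

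Markers of other cell types also read differently in knockdown and control cells, given here as genes detected on at least 1 array of a group and as intensities summed over a list. Of 10 definitive endoderm genes, 7 were detected in knockdown cells and 4 in control cells at day 2, with a summed intensity of 9850 to 14484 in knockdown cells against 1783 to 2169 in control cells. At day 3, 10 were detected in knockdown cells and 7 in control cells, and the sum was 20276 to 26958 in knockdown cells against 1477 to 2994 in control cells. CER1 read highest of them at day 3, with 12186 to 16517 in knockdown cells against 537 to 1281 in control cells. All 10 tested probes of the list were called higher at day 3, where 13.2% of all tested probes were. HHEX, GATA6 and GATA4 were detected on no control array. Pluripotency genes other than POU5F1, the target of the shRNA, were all detected in every group. Their sum over 8 genes was 25320 to 34245 in knockdown cells against 37223 to 42849 in control cells at day 2, and 22714 to 30828 in knockdown cells against 43104 to 50546 in control cells at day 3. Of 13 tested probes of the whole list, POU5F1 included, 7 were called lower at day 2 and 12 at day 3, against 2.57% and 14.4% of all tested probes, and 0 higher. LIN28B did not fall: its day 2 difference was 0.067 (limma adjusted p = 0.9), and at day 3 it averaged 11.86 in knockdown and 11.70 in control cells.

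Of 9 trophoblast and amnion genes with a probe, 6 were detected in knockdown cells and 3 in control cells at day 3, and GATA2, CGA and XAGE2 on no array. The summed intensity of that list at day 3 was 2393 to 2946 in knockdown cells, against 860 to 919 in control cells. ISL1 and HAND1 read highest in these knockdown cells, at 773 to 1131 and 683 to 901, against 211 to 254 and 61.4 to 80.4 in control cells. Of 7 tested probes of that list, 5 were called higher and 0 lower at day 3, where 13.2% and 14.4% of all tested probes were. Of 9 fibroblast and stromal genes, 6 were detected in knockdown cells and 4 in control cells at day 3, and DCN, POSTN and FAP on no array. Their sum at day 3 was 13641 to 20021 in knockdown cells, against 7719 to 12128 in control cells. At day 2 the sums overlapped, with 9096 to 14604 in knockdown cells and 8340 to 12636 in control cells. Of 6 tested probes of this list, 4 were called higher and 1 lower at day 2, against 5.03% and 2.57% of all tested probes. At day 3, 5 were called higher and 1 lower, against 13.2% and 14.4%. The lower one at both days was THY1, with differences of -1.41 at day 2 and -2.22 at day 3 (limma adjusted p = 0.00344 and 2.52e-05). THY1 is part of the sum, and at day 2 it read 1910 to 2711 in knockdown cells against 5069 to 7561 in control cells. The part of such changes in cell state or makeup in the cystatin results was not tested.

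Most markers of tissues in which these cystatins are best known were detected on no array. Of 7 salivary and glandular genes, STATH, PRB1, PIP, LTF, MUC7 and ZG16B were detected on no array, and AMY1A, the one detected, rose by 0.70 at day 3 on 1 of its 3 probes (limma adjusted p = 0.0417). Of 8 keratinocyte and squamous genes, KRT5, KRT14, KRT1, IVL, SPRR1B and KRT13 were detected on no array. The other 2, SFN and KRT10, were detected on all 3 arrays of every group. SFN was called higher at day 3, by 2.32 (limma adjusted p = 0.00115), and KRT10 was not called (0.058, adjusted p = 0.8). At day 3, 13.2% of all tested probes were called higher and 14.4% lower. Of 9 leukocyte genes, PTPRC, LYZ, TYROBP, CD3E, NKG7 and CD53 were detected on no array. Of 4 tested leukocyte probes 0 were called higher and 1 lower at day 3, against the same 13.2% and 14.4%.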

How the data were processed

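Members and gene lists were chosen with earlier results of these data known. The deposited values are linear probe intensities, with no normalisation recorded in the file headers, and each has a deposited detection p-value. The authors' deposited log2 values equal log2 intensities less a constant per array and a baseline per probe (remainder SD 1.71e-07, column medians -0.0146 to 0.0136). They served as an alternative, and the samples behind the baseline are not known. The scanner software is not given in the sources used here.

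Background was corrected with neqc (limma 3.58.1, R 4.3.3) from the detection p-values, with offset 16, quantile normalisation and log2. The filter required detection (p under 0.01) on 3 or more of the 12 arrays and kept 15407 of 48803 probes. Arrays had 13343 to 14969 detected probes, medians of 69.6 to 71.8 and within-group correlations of 0.975 to 0.992. GEO's annotation of the array gives 28098 probes 1 gene name, 13 probes several and 20692 none.

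A single unblocked fit of group means held all 12 arrays and gave 8 residual plus 5.2 prior degrees of freedom. Tests were two-sided limma tests with Benjamini-Hochberg adjustment over all kept probes, called under 0.05, and the steps were tested on simulated data. Named were all probes of the members, the called probes of the listed genes with a few bright ones not called, POU5F1 and the 6 genes most like CST1. An "at least" fold sets the brighter group's mean against, per array, the higher of the dim probe and the lowest detected probe, averaged over arrays (log2 5.69 to 6.16 for the lowest detected probe). Such a fold takes no account of the spread among arrays.

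Deviations from group means of same-numbered arrays correlated at 0.483, 0.365 and 0.725 (replicates 1, 2 and 3) between knockdown and control at day 3. They correlated at 0.182, 0.561 and 0.688 between the knockdown days and at 0.192, 0.195 and 0.632 between the control days. Some differently numbered arrays correlated more: day 3 replicate 1 with day 2 replicate 2 at 0.284 (knockdown) and 0.331 (control). Control day 3 replicate 2 with day 2 replicate 1 gave 0.255. The block alternative took the numbers to pair the arrays of these comparisons, but between the days such pairing is clear in both groups only for replicate 3. Between knockdown and control at day 2 same-numbered arrays correlated at 0.00266, 0.405 and 0.671, and they were not taken as paired. For replicates 2 and 3 these values were no lower than those between the control days, so the split was a choice. Alternatives were no filter, a stricter filter, median scaling, no background correction, the authors' values, 1 probe per gene, only the arrays compared, the replicate block, each array left out, and, added after seeing the data, the 4 replicate 3 arrays left out.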

Additional observations from a re-analysis of the deposited data

Results flagged for a closer look

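The effect of the knockdown on CST6, cystatin M/E, differed between the days by a test of the difference itself. It was 1.15 larger on the log2 scale at day 3 than at day 2 (limma adjusted p = 0.0287), with intensities of 274 to 306 in knockdown cells against 134 to 143 in control cells at day 3. At day 2 they were 166 to 223 in knockdown cells against 140 to 185 in control cells. The difference kept its sign in 20 of 20 alternative fits and its call in 9. CST1 was left out of this screen because it was chosen for its knockdown differences.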

How the results depend on the processing

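CST1 stayed higher in knockdown at both days in every alternative run: its differences over the fits without 1 array were 5.28 to 6.10 at day 2 and 6.44 to 7.30 at day 3. They were smaller without background correction (5.0 and 6.02) and with the authors' log2 values (5.01 and 6.05). Counts of called probes over the fits without 1 array ran from 751 to 1213 at day 2, 202 to 326 for the difference between days, 476 to 792 within knockdown cells and 7 to 50 within control cells. With the replicate number as a block they were 2313 at day 2, 893 for the difference, 1992 within knockdown cells and 517 within control cells, against 1171, 310, 791 and 24 without it. Between knockdown and control at day 3 the count was 4252, with 3185 to 4413 over the fits without 1 array and 6126 with the block. Within control cells 13 were called with no filter and 6 without the 4 replicate 3 arrays, and within knockdown cells 433 with only the 6 arrays compared. Cysteine cathepsin and legumain probes called higher at day 2 numbered 0 with no filter, 0 with median scaling, 2 with the block and 0 to 1 without 1 array. Those called lower at day 3 numbered 1 with 1 probe per gene, 1 without the replicate 3 arrays and 1 to 2 without 1 array. Among the results for single probes, 2670 values kept their side of the threshold, 51 lost a call and 10 gained one, and no called value changed sign. In 115 of these, from 50 results with no call, the sign differed from that reported, with sizes up to 0.48. Except where the alternative itself left out arrays or probes, the cause was not tested. At day 2 same-numbered arrays were not taken as paired, and there the block gained a call for the dimmer CTSB probe (adjusted p = 0.0045). For the difference of effects, which includes the day 2 arrays, the block gained calls for the dimmer CTSB probe (0.0463), CTSH (0.0372) and CTSV (0.0184). In the other comparisons the block took the numbers to pair arrays. There it changed the calls given above and that of the dimmer CTSB probe within knockdown cells (0.038), and no other named call. All named calls that ended without 1 array were kept with the block. Signal near background limits CST1 in control cells, CST5, and every statement on CST2, CST4, CST7 and CSTA.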

Other observations

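SYNDIG1, 2 genes beyond CST5 on chromosome 20 and outside the family, was detected on 2 arrays, both of the day 3 knockdown. Its mean there, 6.05 ± 0.33 on the log2 scale (SD, n = 3), was at least 1.08-fold above control cells at day 3. That fold lies within the spread. SYNDIG1 was picked after its values were seen.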
